A study of Mus musculus with 14 samples.

Results

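The mouse nuclear genome encodes most subunits of the respiratory chain, and 91 of the 19105 genes named in a merged list of open chromatin peaks belonged to it. They were taken by name: every gene whose symbol begins with Nduf, Uqcr or Atp5, with Sdh and one of the letters a to d, or with Cox and a digit from 4 to 8. These 91 genes held 261 of the 92842 peaks in the list. By complex they were 42 genes of complex I, 8 of complex II, 8 of complex III, 18 of complex IV and 15 of complex V, and 13 of the 91 encode assembly factors rather than subunits. The peaks come from ATAC-seq, a method that maps accessible DNA by where a transposase can insert sequencing adapters, in 7 populations of sorted cells from adult wild-type C57BL/6 mice aged 8 to 12 weeks. Bone marrow was the source of multipotent progenitors (MPP), common myeloid progenitors (CMP), common lymphoid progenitors (CLP), granulocyte-macrophage progenitors (GMP), megakaryocyte-erythroid progenitors (MEP) and ProB cells, and the thymus that of ProT cells. Each population gave 2 libraries, 14 in all, and the labels do not say whether they came from different animals. All libraries stand in one merged list with no value per library or cell type, so the cell labels could not be checked against markers, no population could be set against another, and the values below compare these genes with all genes, without a test.

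The respiratory chain passes electrons from NADH (complex I) and succinate (complex II) through ubiquinone, complex III and cytochrome c to oxygen at complex IV, and complex V, the ATP synthase, uses the proton gradient so built to make ATP. A small core of subunits is encoded by mitochondrial DNA, and the rest are made from scattered nuclear genes, many of which are known to be driven from CpG-rich promoters by the transcription factors NRF1, GABPA (an ETS family factor) and YY1. In blood formation, quiescent stem cells are known to rely less on respiration than the progenitors they give rise to.

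The following promoter sequences carry the main observations of the sections below, on peaks shared with a neighbouring gene, on motifs and on tissue isoforms. They are RefSeq sequences of build GRCm38.p6, written 5′ to 3′ on the strand of the respiratory chain gene and ending at the base before its start. Capitals mark 7-letter cores of binding sites on either strand, a length chosen after seeing the data, which are GCATGCG for NRF1, the letters CCGGAAG for ETS factors, and for YY1 the letters ATGGCGG. The first 3 runs fill the whole gap between 2 RefSeq starts that face away from each other. They belong to Atp5j with Gabpa at chr16:84834977-84835124 on the minus strand, Sdhd with Timm8b at chr9:50603850-50603901 on the minus strand, and Ndufa11 with Vmac at chr17:56717699-56717761 on the plus strand. The peak near Ndufa11, listed under Vmac, does not reach the Ndufa11 run. Gaps of the same kind for Ndufb1, Sdhaf2, Atp5md and Atp5pb, of 236, 35, 119 and 235 bp, hold none of these cores and are not printed.
Atp5j to Gabpa: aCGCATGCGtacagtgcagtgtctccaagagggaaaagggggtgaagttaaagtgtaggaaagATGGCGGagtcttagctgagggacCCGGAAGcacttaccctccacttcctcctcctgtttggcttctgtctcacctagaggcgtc
Sdhd to Timm8b: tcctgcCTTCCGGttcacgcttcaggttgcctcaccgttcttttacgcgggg
Ndufa11 to Vmac: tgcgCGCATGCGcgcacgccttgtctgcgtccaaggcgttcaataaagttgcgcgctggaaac
The next 2 runs are the 250 bases before the starts of genes that held the most of the searched motifs beside a peak of their own, Cox6a1 at chr5:115348959-115349208 on the minus strand and Sdhb at chr4:140961021-140961270 on the plus strand.
Cox6a1: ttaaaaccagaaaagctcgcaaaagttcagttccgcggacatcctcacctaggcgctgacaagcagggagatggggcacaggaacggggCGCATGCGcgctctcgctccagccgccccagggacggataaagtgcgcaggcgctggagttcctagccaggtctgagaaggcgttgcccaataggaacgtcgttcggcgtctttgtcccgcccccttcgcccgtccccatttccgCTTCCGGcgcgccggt
Sdhb: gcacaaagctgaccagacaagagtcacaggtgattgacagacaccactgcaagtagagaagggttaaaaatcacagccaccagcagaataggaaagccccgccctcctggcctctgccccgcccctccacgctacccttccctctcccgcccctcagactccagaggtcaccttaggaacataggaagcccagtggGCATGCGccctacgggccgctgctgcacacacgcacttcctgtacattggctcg
The last 2 runs belong to an isoform pair, the widely used Cox7b at chrX:106015450-106015699 on the plus strand, whose start lay under a peak, and the tissue-restricted Cox7b2 at chr5:71548206-71548455 on the minus strand, whose start did not. Neither holds one of the cores.
Cox7b: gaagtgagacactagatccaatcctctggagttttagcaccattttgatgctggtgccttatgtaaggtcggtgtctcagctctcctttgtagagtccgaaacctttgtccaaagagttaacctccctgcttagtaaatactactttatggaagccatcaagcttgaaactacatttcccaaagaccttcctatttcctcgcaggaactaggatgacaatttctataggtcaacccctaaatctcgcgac
Cox7b2: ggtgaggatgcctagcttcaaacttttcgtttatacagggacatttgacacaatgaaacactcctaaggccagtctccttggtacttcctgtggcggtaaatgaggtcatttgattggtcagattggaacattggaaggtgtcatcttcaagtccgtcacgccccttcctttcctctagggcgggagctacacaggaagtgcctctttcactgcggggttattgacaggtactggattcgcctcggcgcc

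Nearly every respiratory chain gene in the list had an open promoter. A peak centred within 1000 bp of the transcription start site (TSS) and listed under the gene itself was present for 82 of 91 genes (90.1%, exact 95% interval 82.1% to 95.4%), beside 12158 of 16500 protein-coding genes in the list (73.7%). All intervals given here cover counting error only. The median distance of the nearest peak centre was 93 bp for respiratory chain genes and 153 bp for coding genes. A peak spanned the TSS itself in 79 genes of the chain (86.8%) and in 10389 coding genes (63.0%). The nearest centres lay 1 bp from the TSS of Cox7a2, a complex IV subunit, 3 bp from that of Ndufab1, the mitochondrial acyl carrier protein found in complex I, 4 bp from that of Ndufs3, an iron-sulfur protein module subunit, and 5 bp from that of Atp5e, the epsilon subunit of ATP synthase. Ndufb9 of complex I and Atp5g2, a c-ring gene of ATP synthase, followed at 7 bp each.

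A list of nearest genes leaves out genes under which no peak is listed, so the share was also taken over the RefSeq annotation. There, 102 coding genes match the naming rule by their RefSeq symbol or by their name in the list. Atp5sl and Atp5s, 2 of the 102, match by the list's name alone, and both had an own promoter peak. At least 1 peak was listed for 93 of the 102 (91.2%, exact 95% interval 83.9% to 95.9%), beside 75.1% of 21896 coding genes. Own promoter peaks were present in 84 of the 102 (82.4%, 73.6% to 89.2%), beside 55.4% of all coding genes. Ndufaf8, a complex I assembly factor, and Atp5mpl, a small ATP synthase subunit, are among these 93 because the list carries them as 1810043H04Rik and 2010107E04Rik, each with 2 peaks. The 9 genes with no listed peak were Ndufs1, Ndufb1, Ndufa11, Ndufb4b, Ndufb4c, Cox8b, Cox8c, Atp5pb and Atp5md. Any peak at the start, whichever gene it was listed under, was counted next, with Ndufa4l2 taken at its listed TSS alone. Such a peak was present in 95 of the 102 (93.1%, 86.4% to 97.2%). Of the 102, 84 have a RefSeq promoter entry, and 81 of the 84 had such a peak (96.4%, 89.9% to 99.3%), beside 61.7% of the 17491 coding genes with an entry.

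**Figure D1:**
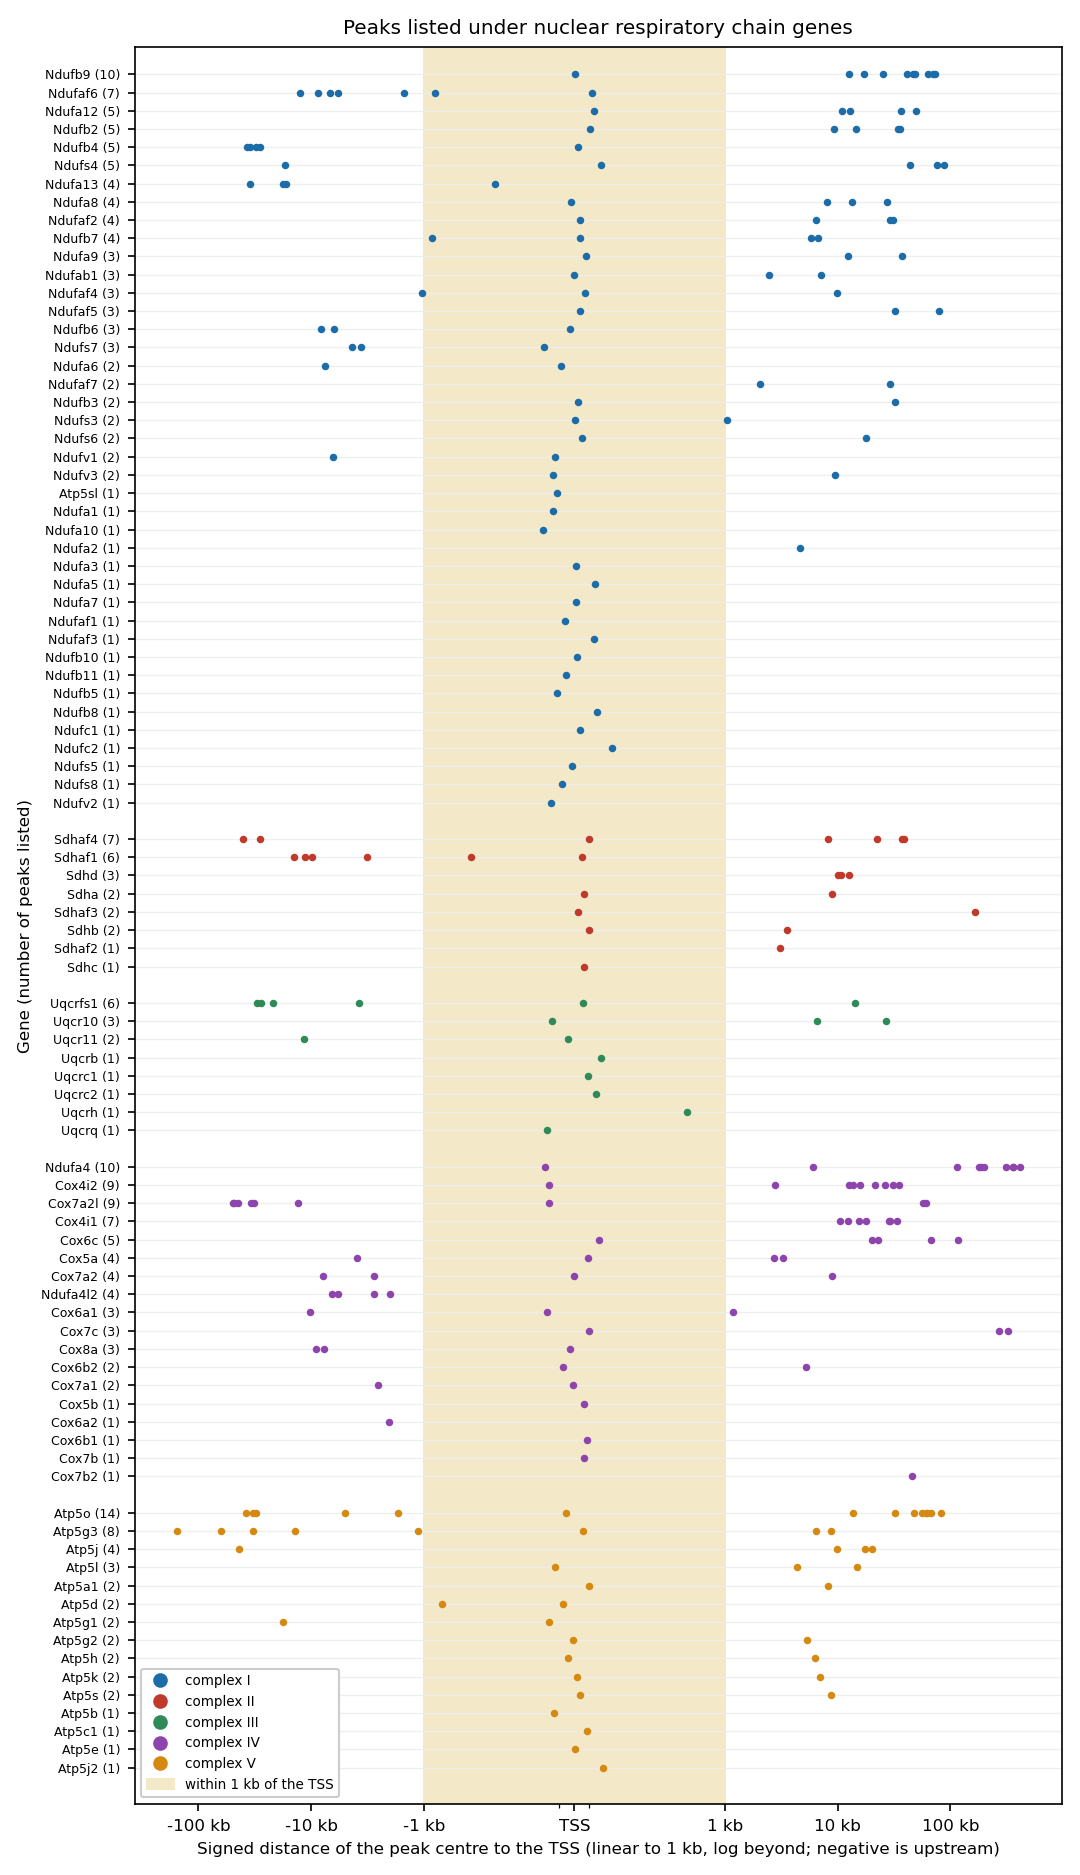
Every peak listed under 90 of the 91 nuclear respiratory chain genes, grouped by complex, as the signed distance of the peak centre to the TSS (linear scale to 1 kb, log scale beyond, negative is upstream; each dot is 1 peak and the number in brackets is the gene's count). The column of dots inside the shaded band of 1 kb on either side of the TSS holds 85 of the 260 peaks drawn, and 9 genes have no dot in it.

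Compared with coding genes in the list, the genes of the chain had few peaks each. They held a mean of 2.87 ± 2.51 peaks (SD over 91 genes) with a median of 2 and a range of 1 to 14, beside 4.86 ± 5.33 with a median of 3 and a maximum of 88 for coding genes in the list. A single peak was listed for 35 genes (38.5%), beside 23.2% of coding genes, and for 31 of these 35 it lay at the promoter. Promoter peaks made up 86 of the 261 peaks (33.0%, exact 95% interval 27.3% to 39.0%), beside 16.2% of all peaks in the list. The plot of peaks by gene shows this as rows with a single dot near the TSS. Ndufaf6, Ndufb7, Sdhaf1 and Atp5d were the 4 genes with 2 promoter peaks. The counts depend on how far the next gene lies, since each peak is listed under the nearest TSS, and that part was not tested.

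Among promoter peaks, those of the respiratory chain lay close around the start. Within 100 bp of the TSS were 50 of 86 (58.1%), beside 42.7% of the 14102 promoter peaks of coding genes, and within 200 bp were 77 (89.5%), beside 70.4%. The centre was upstream of the TSS in 40 of 86 (46.5%), beside 44.4% for coding genes, so neither set leaned strongly to one side. The median signed distance was 8.5 bp downstream in the chain and 22 bp downstream in coding genes. In the deposited classes, 29.1% of the chain's peaks were promoter-TSS, 28.4% intron and 33.7% intergenic, beside 11.6%, 42.0% and 39.3% of all peaks. Exons held 3.45%, transcription end sites 3.07% and 3′ UTRs 1.92% of the chain's peaks, beside 2.67%, 1.61% and 1.09% of all peaks.

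**Figure D2:**
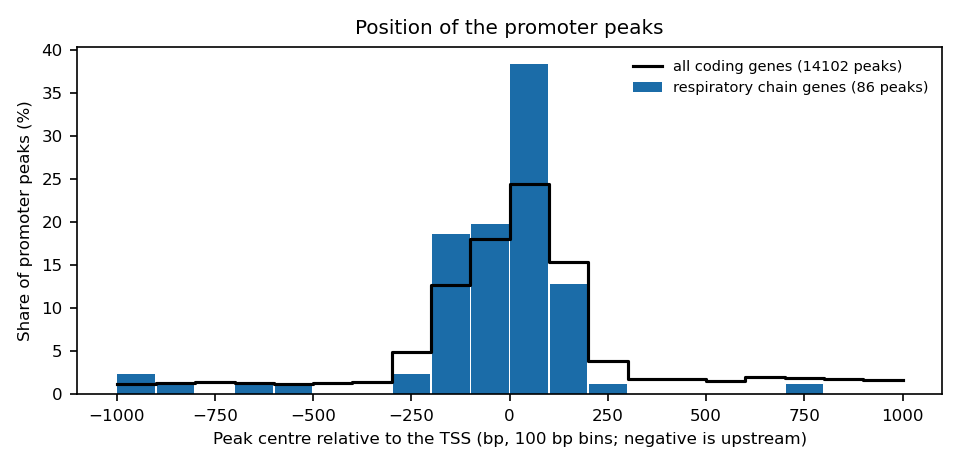
Position of the 86 promoter peaks of respiratory chain genes (bars) and of the 14102 promoter peaks of all coding genes (line), as the share of each set per bin of 100 bp from the TSS. In the bin just downstream of the TSS the bar stands above the line, and beyond 200 bp on either side few bars are left.

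Complex I (NADH dehydrogenase), which takes electrons from NADH, had a promoter peak in 40 of 42 genes (95.2%), a mean of 2.48 ± 1.95 peaks and a median nearest distance of 85.5 bp. All 6 listed core subunits, which carry the flavin and iron-sulfur clusters or line the ubiquinone site, had one. Ndufv1, the flavoprotein that binds NADH, had 2 peaks, the nearer centred 130 bp upstream of the TSS, and Ndufv2 and Ndufs8 had 1 peak each, centred 158 and 85 bp upstream. Ndufs7 had 3 peaks, the nearest 205 bp upstream. Ndufs3 had 2 peaks. Of the 28 accessory subunits 27 had a promoter peak, the exception being Ndufa2, and they held 1 to 10 peaks each, 13 of them a single one. Ndufb2, Ndufb4 and Ndufa12 had 5 peaks each, with the nearest 105, 24 and 131 bp from the TSS. The 4 distal peaks of Ndufb4 lay together upstream, from 28.3 to 36.8 kb, and are classed as intergenic. Ndufa13, also known as the cell death regulator GRIM-19, had its nearest own peak centred 527 bp upstream of the listed TSS. Another peak, centred 291 bp from a different RefSeq start of Ndufa13, is listed under the facing gene Tssk6. Ndufs4, an accessory subunit known for its loss in Leigh syndrome, had 5 peaks. Of these, 4 are classed as lying in its own introns, at 180, 43639, 75684 and 88659 bp downstream of the TSS. Of the 8 assembly factors 7 had a promoter peak, the exception being Ndufaf7, a mitochondrial arginine methyltransferase. Ndufaf6 held 7 peaks, and Ndufaf2, an assembly chaperone, had 3 peaks inside its own gene beside the promoter peak.

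Complex II (succinate dehydrogenase), which also works in the citric acid cycle, had a promoter peak in 6 of 8 genes (exact 95% interval 34.9% to 96.8%). Sdha, the flavoprotein, had its nearest peak centred 62 bp from the TSS, Sdhb, the iron-sulfur protein, at 98 bp, and Sdhc, a membrane anchor, at 65 bp. Sdhd, the other anchor, and Sdhaf2, which attaches the flavin to Sdha, had no promoter peak listed under them, the nearest listed peaks lying 10119 bp and 3077 bp away. The assembly factors Sdhaf4 with 7 peaks and Sdhaf1 with 6 peaks held more peaks than the 4 subunits, which had 1 to 3.

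Complex III (cytochrome bc1), which hands electrons to cytochrome c, had a promoter peak in all 8 genes, for which the exact 95% interval reaches down to 63.1%. Uqcrfs1, the Rieske iron-sulfur protein, stood apart with 6 peaks, 5 of them more than 1 kb away and classed as intergenic. Uqcr10 and Uqcr11, small accessory subunits, had 3 and 2 peaks, and the remaining 5, Uqcrc1, Uqcrc2, Uqcrb, Uqcrq and Uqcrh, had 1. The nearest peak of Uqcrh, the hinge protein, was centred 748 bp downstream of its TSS, the farthest in this complex, and another peak, 175 bp away, is listed under Lrrc41, whose start faces that of Uqcrh across 199 bp.

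Complex IV (cytochrome c oxidase), which reduces oxygen, had a promoter peak in 14 of 18 genes (77.8%, exact 95% interval 52.4% to 93.6%), close to the 73.7% of coding genes, and a mean of 3.89 ± 2.99 peaks. Promoter peaks were 20.0% of its peaks, the lowest share of the 5 complexes, beside 40.4% in complex I, 29.2% in complex II and 31.9% in complex V, and 8 of 16 peaks in complex III. The plot of promoter shares by complex shows wide intervals that overlap between all 5. Cox5a had 4 peaks, Cox5b and Cox6b1 1 each, and Cox6c and Cox7c, small membrane subunits, 5 and 3, the nearest at 93, 66, 85, 165 and 94 bp from the TSS in that order. Cox7a2l, which takes part in supercomplex assembly, had 9 peaks with 1 at the promoter.

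Complex V (ATP synthase) had a promoter peak in 14 of 15 genes (93.3%), with a mean of 3.13 ± 3.48 peaks. The 5 genes of the catalytic F1 head, Atp5a1, Atp5b, Atp5c1, Atp5d and Atp5e, each had one and held 1 or 2 peaks (mean 1.40). The 6 genes of the membrane part, among them the 3 genes for the c-ring, Atp5g1, Atp5g2 and Atp5g3, each had one too, with a mean of 3.00 peaks, and Atp5g3 held 8 and Atp5l 3. The peripheral stalk, which holds the head still while the rotor turns, had a mean of 5.50 ± 5.74 peaks over 4 genes, of which Atp5o, the subunit that confers oligomycin sensitivity, held 14. Atp5j, the coupling factor 6 subunit, was the only gene of complex V without a promoter peak listed under it.

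**Figure D3:**
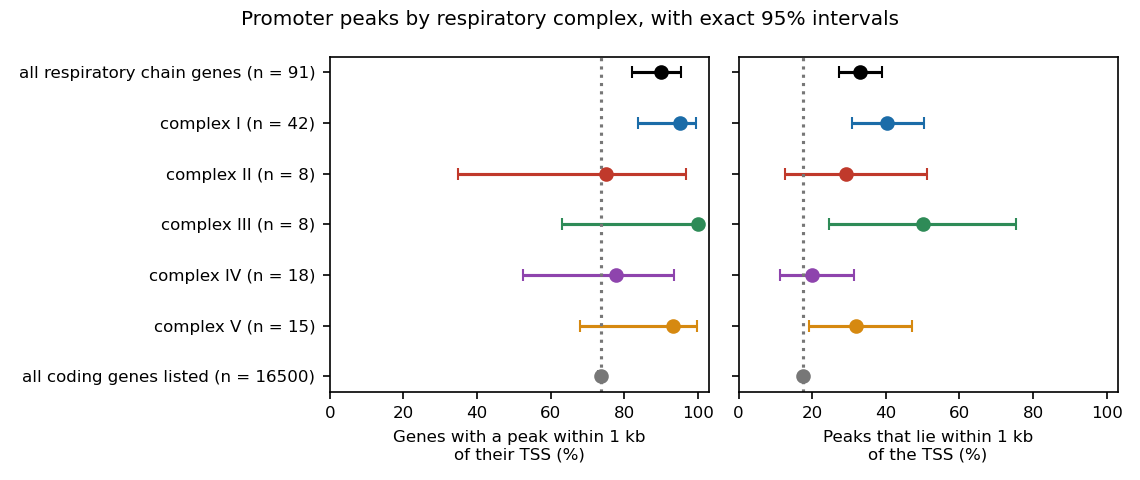
Share of genes with a peak within 1 kb of their TSS (left) and share of peaks that lie within 1 kb of the TSS (right), in percent, for all 91 respiratory chain genes, each complex and all coding genes listed (points; bars are exact 95% intervals for counting error, the dotted line marks all coding genes). Complex I lies at 95.2% on the left and complex IV at 77.8%, and on the right complex IV lies nearest to the dotted line.

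Several starts without an own peak were open all the same. For 11 genes the peak at the start is listed under a neighbour on the opposite strand: Ndufa11, Ndufa2, Ndufaf7, Ndufb1, Ndufs1, Sdhaf2, Sdhd, Cox4i1, Atp5j, Atp5md and Atp5pb. In 10 of the 11, the peak reached both starts, and in 9 the start of the neighbour was nearer to the peak centre. For Atp5md the respiratory chain start was nearer, at 54 bp beside 65 bp for Pdcd11, and for Atp5pb too, at 55 bp beside 180 bp for Wdr77, although the list names the neighbours. The Sdhd peak at chr9:50603686-50604184 was centred 86 bp upstream of the Sdhd start and 34 bp into Timm8b, which encodes a chaperone of mitochondrial protein import, and the 52 bp between both starts, printed above, hold 1 ETS core. The Atp5j peak at chr16:84834901-84835399 was centred 174 bp upstream of the Atp5j start and 26 bp into Gabpa, which encodes the DNA-binding subunit of an ETS factor known to act on respiratory genes. The 148 bp between Atp5j and Gabpa hold all 3 of the 7-letter cores, and the promoter window of Atp5j holds 0 of the 3 sites in their planned length of 8 letters. None of the 7-letter cores lies in the gaps of Ndufb1, Sdhaf2, Atp5md and Atp5pb.

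The main cytochrome c oxidase isoform gene Cox4i1 was a further case. Its start peak at chr8:120667854-120668352 was centred 217 bp upstream of the Cox4i1 start and 9 bp from that of Emc8, which encodes a subunit of the endoplasmic reticulum membrane complex. The 7 peaks listed under Cox4i1 itself lay 10.4 to 33.8 kb downstream of its TSS, which is 57.6 to 34.3 kb upstream of the start of Irf8, a transcription factor gene of myeloid and dendritic cells. Ndufs1, the largest complex I subunit, shared a peak with Eef1b2, a translation elongation factor gene whose start lay 9 bp away. For Ndufa2 the neighbour was Ik, for Ndufaf7 Cebpz, for Ndufb1 Cpsf2, for Sdhaf2 Cpsf7, for Atp5md Pdcd11 and for Atp5pb Wdr77, with 35 to 236 bp between both starts. Ndufa11 differed from the other 10, because the peak, centred 504 bp upstream of its start and listed under Vmac, reached neither start. The list places the start of Vmac 841 bp from that of Ndufa11, and the RefSeq promoter table puts both starts 63 bp apart.

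**Figure D4:**
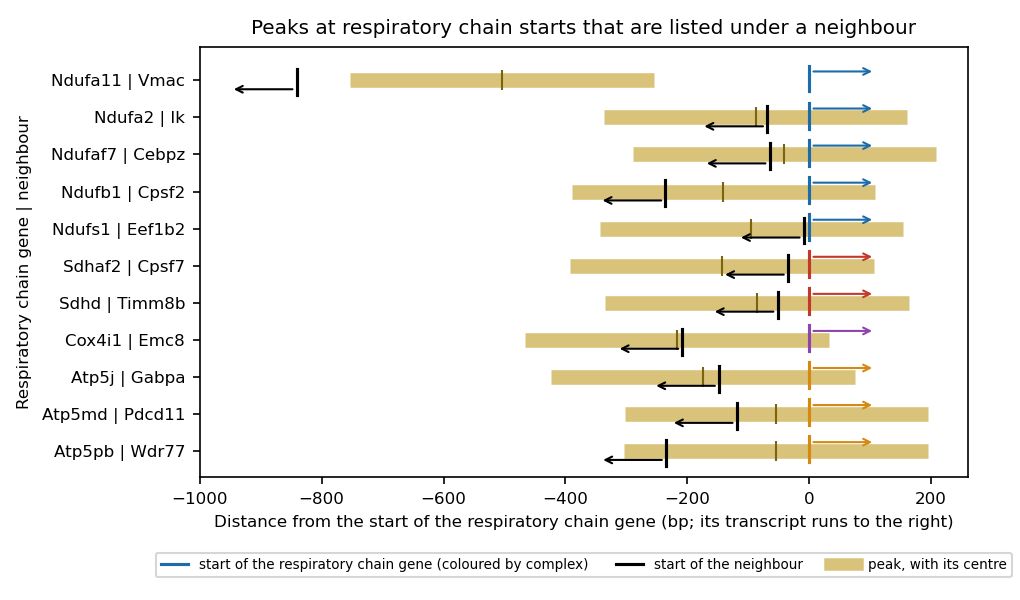
The 11 respiratory chain starts (coloured ticks at 0, arrow to the right) whose peak (sand bar, centre marked) is listed under a neighbouring gene (black tick and arrow to the left), in bp from the start of the respiratory chain gene. Every neighbour runs in the opposite direction, and in every pair but Ndufa11 with Vmac the bar covers both ticks.

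Some starts of the chain face the start of another gene. A start on the opposite strand within 1000 bp upstream, with an overlap of up to 100 bp allowed, was found for 27 of the 84 rule-matching genes with a promoter entry (32.1%, exact 95% interval 22.4% to 43.2%), beside 13.9% of the 17491 coding genes with one. Among those with a listed peak it was 22 of 77 genes of the chain (28.6%, 18.8% to 40.0%), beside 15.1% of 13100 coding genes. The table does not hold all genes, so both are minimum counts. The gaps of the 22 had a median of 100.5 bp and ran from -39 bp, an overlap, to 618 bp. Partners included Kbtbd4 for Ndufs3 at 19 bp, the ribosomal protein gene Rps28 for Ndufa7 at 10 bp, the mitochondrial ribosomal protein gene Mrpl47 for Ndufb5 at 308 bp and Ccdc127 for Sdha at 77 bp. Genes without a promoter entry included Uqcrc2, Uqcrb, Uqcrq, Ndufb9, Ndufa2, Ndufa4l2, Ndufaf6, Cox4i1, Cox4i2, Cox6a2, Cox6c, Atp5a1 and Sdhc.

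Starts with no peak belonged mostly to tissue isoforms. Complex IV has pairs of genes in which one member is used widely and the other in few tissues, such as muscle, lung or testis. Of the 17491 coding genes with a promoter entry, 61.7% had a peak within 1000 bp of a start under any listing, and the rest had none. Of 8 tissue isoforms, 5 had no peak within 1000 bp of the TSS: Cox6a2 and Cox8b of heart and skeletal muscle, Cox7b2 and Cox8c of testis, and Ndufa4l2, a gene induced by hypoxia. Their closest peaks under any listing lay 2036 bp (Cox6a2), 3053 bp (Cox8b), 45970 bp (Cox7b2), 13495 bp (Cox8c) and 1992 bp (Ndufa4l2) away. For Ndufa4l2, which has no promoter entry, only the listed TSS was used. Its RefSeq span begins at chr10:127509274, under a peak listed for it 5814 bp upstream of that TSS. The other 3 isoforms had a peak within 1000 bp, at 169 bp for Cox4i2, the lung form, 73 bp for Cox6b2, the testis form, and 11 bp for Cox7a1, the heart and muscle form. Cox4i2 also held 7 peaks inside Bcl2l1, a gene that protects blood cells from apoptosis. All 7 widely used partners had a peak at the start, for Cox4i1 the one listed under Emc8, and for Cox6a1, Cox6b1, Cox7a2, Cox7b, Cox8a and Ndufa4 their own at 182, 85, 1, 61, 28 and 196 bp. In the whole rule-matching set of 102 genes, 7 starts had no peak within 1000 bp, with Ndufa4l2 taken at its listed TSS alone. These were the 5 isoforms and Ndufb4b and Ndufb4c, which carry the name of the complex I subunit gene Ndufb4, with closest peaks at 1169 and 2553 bp. Ndufb4 itself had a peak 24 bp from its TSS. A merged list cannot show whether the open starts of Cox4i2, Cox6b2 and Cox7a1 came from all 7 populations or from 1.

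Distal peaks made up 67.0% of the chain's peaks, beside 83.8% of all peaks, and 59 genes of the chain had one. Of the 175 peaks more than 1 kb from the TSS, the deposited classes place 32 in the respiratory chain gene itself and 55 in another gene. The other 88 are classed as intergenic, here called in no gene, although a RefSeq gene span can be wider, as at Cox7a2. Peaks of the transcription end site class count as inside a gene, although that of Ndufa8 lies just beyond its RefSeq span. No distal peak was listed for 32 of the 91 genes (35.2%), beside 15.4% of coding genes in the list. Beyond 100 kb lay 13 peaks (4.98%), beside 12.4% of all peaks, and 50 to 100 kb away lay 15 (5.75%), beside 13.3%. At least 6 peaks were listed for 11 genes of the chain (12.1%), beside 27.8% of coding genes. These 11 held 81 of the 175 distal peaks (46.3%), and the coding genes with that many held 69.8% of the distal peaks of coding genes.

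The distal peaks of these 11 genes lay mostly in a neighbouring gene or in no gene. Atp5o had 14 peaks over 121 kb of chromosome 16, of which 8 lay in Itsn1, an endocytic scaffold gene, 32.0 kb and more from the TSS for 7 of them and 13.8 kb for the other, and 5 upstream in no gene. Ndufb9 had 10 peaks over 73.5 kb of chromosome 15, and all 9 beyond its promoter lay in Mtss1, which encodes a membrane-bending actin regulator. Ndufa4 had 10 peaks over 414 kb of chromosome 6, 8 of them in no gene and the farthest 412.8 kb downstream. Cox7a2l had 6 upstream peaks between 13.2 and 49.6 kb in no gene and 2 in Eml4. Atp5g3 had 7 distal peaks in no gene, from 1.14 kb to 155.5 kb away. Ndufaf6 had 5 upstream peaks within 12.6 kb, and Sdhaf1 4 upstream peaks in a span of 14.8 kb that holds all its 6 peaks. Sdhaf4 had 2 of 7 peaks in Fam135a. Among the genes with fewer peaks, Cox6c had 4 of its 5 in Vps13b, Ndufb2 had 3 of 5 in Braf, and Ndufa13 had 3 of 4 in Gatad2a. A listing under the nearest TSS does not say which gene such a peak acts on.

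Promoter motifs were counted in the 300 bases from 250 before to 50 after the RefSeq start, for the 77 genes of the list with an entry. A gene with several starts counted if any of its windows held the motif, and the number of windows per gene was not matched between sets. These 77 all have a listed peak, so the coding genes with a peak at the start are the closer comparison. The 8-letter NRF1 core GCATGCGC on either strand was present in 11 (14.3%, exact 95% interval 7.35% to 24.1%), beside 5.76% of the 10795 coding genes with a peak at the start and 3.93% of all 17491. Its holders were Cox6a1, Sdhb, Atp5l, Atp5g2, Atp5k, Ndufa6, Ndufa8, Ndufaf4, Ndufaf5, Uqcr11 and Uqcrc1, which fall in all 5 complexes. The 8-letter YY1 core ATGGCGGC was present in 8 (10.4%), beside 5.36% and 3.50%. With the 50 bases after the start left out it was present in 3 (3.90%), beside 2.13% and 1.41%. Of the 8 holders 7 were of complex I, which has 38 of the 77 genes, among them Ndufs4, Ndufs6, Ndufs7, Ndufa7, Ndufa9 and Ndufb5. The ETS site CCGGAAGT was present in 5 (6.49%), beside 8.66% and 5.69%. Its holders were Atp5h, Uqcrh, Cox8a, Ndufs3 and Uqcr11.

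With the last letter of each motif dropped, a choice made after seeing the data, the share for GCATGCG was 15.6% (exact 95% interval 8.32% to 25.6%), beside 7.01% of coding genes with a peak at the start and 4.95% of all coding genes. For CCGGAAG it was 26.0% (16.6% to 37.2%), beside 19.1% and 12.9%, so the ETS share lay above that of coding genes with a peak at the start, where the 8-letter site lay below it. For ATGGCGG the share was 16.9% (9.31% to 27.1%), beside 8.91% and 6.05%. At least 1 of the 3 was present in 37 of 77 genes (48.1%), beside 30.7% and 21.1%, and at least 2 different ones in 7 (9.09%), beside 4.20% and 2.73%. Atp5j was the only one of the 77 with all 3, which 14 of the 17491 coding genes had. With the 8-letter sites it had 0 of the 3. In its sequence above, the NRF1 core lies at the Gabpa end, and the YY1 and ETS cores follow in the middle. In the Cox6a1 run the NRF1 core lies well upstream and the ETS core, on the other strand, close to the start of the gene.

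Elements of promoters in general were counted in the same windows. The GC box GGGCGG on either strand was present in 37 of 77 (48.1%), beside 68.2% of coding genes with a peak at the start and 49.2% of all. CCAAT on either strand was present in 35 (45.5%), beside 42.9% and 42.3%. TATAAA on the gene strand was present in 2 (2.60%), Ndufa3 and Ndufs7, beside 5.48% and 9.82%. The median GC content of the windows was 58.5% in the chain, beside 60.7% in coding genes with a peak at the start and 56.3% in all. The median ratio of observed to expected CpG was 0.829, beside 0.742 and 0.564. Each of the 3 cores holds a CpG, so their shares can move with CpG content, and that part was not tested. A match is a run of letters and not a measured binding site.

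**Figure D5:**
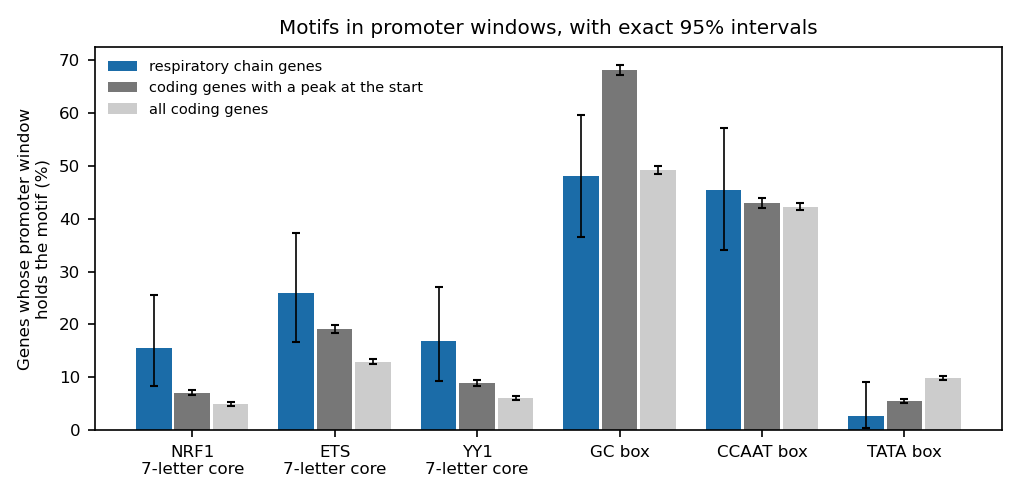
Share of genes with each motif in any of their promoter windows of 300 bases, in percent. Shown are 77 respiratory chain genes, 10795 coding genes with a peak at the start and all 17491 coding genes with a promoter entry. Bars start from 0, and error bars are exact 95% intervals for counting error. For the 3 cores, drawn in the 7-letter form chosen after seeing the data, the bars of the chain stand above both others, at 15.6%, 26.0% and 16.9%, while the 8-letter ETS site, not drawn, was in 6.49% of the chain and 8.66% of coding genes with a peak at the start. For the GC box and the TATA box the bars of the chain stand below the middle bars.

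Genes that serve the chain but fall outside the naming rule were counted in 7 lists of 65 genes. An own promoter peak was listed for 52 of 65 (80.0%), beside 55.4% of RefSeq coding genes, and a peak at the start under any listing for 64, beside 61.7% of coding genes with a promoter entry. Among electron carriers it was 5 of 6, with cytochrome c, Cycs, holding 5 peaks, the nearest 63 bp from its TSS, and its testis counterpart Cyct holding none. Among 13 genes of ubiquinone synthesis 11 had an own promoter peak, and among 6 assembly factors of complex I outside the rule all 6 had one. The count was 4 of 6 for complex III assembly, 12 of 17 for complex IV assembly and 2 of 4 for complex V assembly and inhibition, and each gene of these lists had a peak at the start under some listing. Of 13 regulators 12 had an own promoter peak. Ppargc1a, a coactivator of mitochondrial biogenesis, had 12 peaks, Nrf1 and Tfam, the mitochondrial transcription and packaging factor, 5 each, and Yy1 12. Gabpa had 1 peak, the one it shares with Atp5j.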

How the data were processed

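ATAC-seq peaks of 14 libraries, 2 for each of 7 cell types, were analysed from the deposited master list. The authors ran annotatePeaks on it with mm10, per the file header, from HOMER 4.10.2, per the submitters' processing notes. Not given in the sources used here were the aligner, the peak caller with its threshold and the merging. The deposited list gives for each peak its position in bp, its class, its nearest gene and the signed distance to that TSS in bp. The deposited peak score, 0 throughout, was left out. Depth is unknown, and no value per library was analysed here.

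Gene IDs were matched to RefSeq tables of GRCm38.p6, the assembly of mm10, and all 91 genes matched. A promoter peak was centred at most 1000 bp from the TSS of its listed gene. Promoter windows held 250 bases before and 50 after the start. Intervals are exact (Clopper-Pearson, scipy 1.17.1), with Python 3.11.15, pandas 2.3.3, numpy 2.4.6 and matplotlib 3.10.9. The counting steps were tested on simulated data. No test between genes was run.

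The genes named are the 3 with the most peaks in each complex and role, the 10 with the most and the 5 with the closest peaks of all, genes without a peak or with none at the promoter, isoform pairs and genes whose start peak is listed under a neighbour. Others were named after their values were seen. The genes and lists were chosen with earlier results of these data known. Alternatives varied the promoter distance, the naming rule, assembly factors, peak distance, listing and motif window. For 1 gene, which enters all counts, no values of its own are reported here.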

Additional observations from a re-analysis of the deposited data

How the results depend on the processing

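Of 28 alternative values over 12 results, 23 stayed within the counting interval of the value given or within 1 SD and 5 moved. That SD is the spread between genes, so staying within it says little about a mean. The mean of 2.87 peaks per gene was 1.62 within 10 kb and still counted as staying. No matching mean of coding genes is given here. The share of respiratory chain genes with a promoter peak was 80.2% when the deposited class promoter-TSS defined it and 96.7% when peaks at the start listed under another gene were counted. The promoter-TSS class left out 9 genes whose nearest peak, centred 105 to 250 bp downstream of the TSS, is classed as intron, exon or 5′ UTR. Within 500 bp the share was 87.9%, and without the assembly factors named Ndufaf or Sdhaf 91.3% (73 of 80). Without all 13 assembly factors it was 91.0%. For the promoter-TSS class, the 500 bp limit and the count under any listing, no matching share of the listed coding genes is given here. Their 73.7% holds for own peaks within 1000 bp. With no peak within 10 kb as the criterion, 3 of the 8 tissue isoforms lacked one. The 8-letter YY1 core was in 3.90% of the chain's genes when the 50 bases after the start were left out. In the same shorter windows it was in 2.13% of coding genes with a peak at the start and 1.41% of all. The ETS core of 7 letters, chosen after seeing the data, was in 26.0% of the chain's genes, above the 19.1% of coding genes with a peak at the start. The 8-letter site, in 6.49%, lay below their 8.66%. No paired analysis was possible because the merged list carries no libraries, and for the same reason no replicate could be left out. Depth is unknown, so a start without a listed peak is not shown to be closed, and the weight of each population in the merged list is unknown too.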

Other observations

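Pseudogenes named after respiratory chain genes were also looked up. RefSeq places 19 of them on the assembly, and 0 of the 19 were overlapped by a peak, beside 516 of all 10622 RefSeq pseudogenes (4.86%). A named repeat held 37 of the 261 respiratory chain peaks (14.2%), beside 16.0% of all peaks.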
